A study of Drosophila melanogaster with 36 samples.

Results

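The miRNAs miR-285 and miR-995 of Drosophila melanogaster are counted with the miR-29 seed family, and their mature arms were followed in heads of old and young flies around the day. Members were taken by identifier, as every mature arm listed under dme-miR-285 or dme-miR-995 in the miRNA tables, which gave 4 arms (miR-285-3p, miR-285-5p, miR-995-3p and miR-995-5p) of 673 listed features. All 4 passed the filter on low counts, as did 363 features in all. The libraries came from whole heads of female w1118 flies, 400 heads per sample, aged 55 days (old) or 5 days (young). At each age heads were taken at zeitgeber times (ZT, hours on the light schedule) ZT0, ZT4, ZT8, ZT12, ZT16 and ZT20, with 3 replicates at each, which makes 12 groups and 36 libraries. All groups share sex and strain, and no transgene or drug is listed for any of them. A sample pools 400 animals. Whether the replicates of a group were separate cohorts of flies is not stated, and the p-values below therefore refer to the spread among these libraries, which may be technical. The questions the design puts to the 4 arms are whether their level differs with age, at which times of day, and whether it follows a daily rhythm at either age.

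A miRNA acts within an Argonaute complex that pairs with messenger RNAs, mainly through the seed near the 5′ end of the miRNA, and it lowers the output of the messages it pairs with. Either arm of a hairpin can be loaded, and the arms carry different seeds, so the 3p and 5p arms are different regulators. In the miR-29 family the family seed lies on the 3p arm. The mammalian family members are known for repressing collagen and other extracellular matrix genes and for increasing in ageing mouse brain, muscle and other organs. In the fly, miR-285 is known from glia of the blood-brain barrier, where it limits the Hippo pathway effector Yorkie and its partner Mask, and miR-998 of the same seed family is known to protect cells from E2F1-dependent cell death. The seeds themselves were not read from sequence here, so the family name is background and not a result.

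In the BDGP6 annotation the miR-285 hairpin lies on chromosome arm 3L from 11946093 to 11946191 on the minus strand, outside genes. Its nearest neighbours are CG5883, at a distance of 1241 bases on the same strand, and CG7252, at 1484 bases on the other strand. The miR-285-5p arm spans 11946157 to 11946179 (23 nt) and the miR-285-3p arm 11946107 to 11946128 (22 nt). The miR-995 hairpin lies on chromosome arm 3R from 20735923 to 20736012 on the plus strand, in an intron of Cdk2, which encodes a cyclin-dependent kinase of S phase entry and has the same strand. Its 5p arm spans 20735939 to 20735960 (22 nt) and its 3p arm 20735977 to 20735997 (21 nt). The hairpin of miR-998, the other fly miRNA set beside them here, lies on 3R from 21621879 to 21622021 on the minus strand in an intron of E2f1.

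Libraries held 16.2 to 30.4 M miRNA counts each. Levels below are counts per M counts (CPM) on library sizes scaled with TMM factors, which assume that most features do not differ between libraries. On this scale 60.9% of tested features were called for age, 28.7% higher and 32.2% lower in old heads. Whether the assumption holds between the ages was not tested. The neuronal miR-124-3p was present in every library, at 312 to 492 CPM in old and 158 to 408 CPM in young heads, and the photoreceptor-rich miR-210-3p at 17488 to 32405 CPM in old and 24234 to 39459 CPM in young heads. On the TMM scale miR-124-3p was called higher in old heads (log2 difference 0.41, edgeR adjusted p 1.21e-04; on the total behind the piRNA values it turned to -0.22) and miR-210-3p lower (-0.33, adjusted p 4.78e-07), a call that was lost with library totals alone (-0.14, adjusted p 0.171). Muscle miR-1-3p was not called (0.09, SE 0.215). Its median was 556 CPM in old and 426 CPM in young heads. Its highest value was 777 CPM in old heads and 3094 CPM in young heads. None of 4 ovary features was called, and their median log2 difference was -0.71. Of 6 testis features tested 4 were called higher in old heads, against 28.7% of all tested features. The 10 testis features listed summed to 10.9 to 18.5 CPM in old and 7.83 to 13.3 CPM in young heads. The other arms of the miR-124 and miR-210 hairpins went the opposite way on the TMM scale. There miR-124-5p was lower in old heads (-0.28, edgeR adjusted p 1.07e-04) and miR-210-5p higher (0.59, adjusted p 1.39e-04). The part of such marker shifts in the age differences given here was not tested. In bulk samples fewer cells of a type and less RNA per cell cannot be told apart. A set of 3 libraries (old ZT0 replicate 1, young ZT4 replicate 3 and young ZT8 replicate 3) stood apart by ovary miRNAs, whose 4 features summed to at most 660 CPM in old and 902 CPM in young libraries, against medians of 14.6 and 19.7 CPM. A further 2 libraries, old ZT0 replicate 3 and young ZT0 replicate 1, had 37.1% and 45.3% of their counts on miR-184-3p, against 8.39% to 18.6% elsewhere. The age differences and ratios were also computed without each of these sets, and some of these values are given beside the results. The part of these libraries in the other results was not tested.

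The 4 arms differed widely in level, with the same order at both ages. Highest was miR-995-3p, which ranked 24 of 363 tested features in old and 25 in young heads by mean level. Next came miR-285-5p (rank 39 in old and 38 in young), miR-285-3p (103 and 86) and miR-995-5p (210 and 215). The ranges of these arms over the libraries of an age did not overlap. Levels of different small RNAs in CPM also carry differences in how well each is captured by a library, so the order between arms is a description. The miR-995 hairpin was read almost wholly from its 3p arm, which took 99.93 ± 0.016% of the hairpin's counts in old and 99.95 ± 0.0098% in young libraries (SD, n = 18 each). For miR-285 the arm listed as 5p took most counts, and the 3p arm held 6.34 ± 1.37% in old and 7.82 ± 1.62% in young libraries.

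**Figure D1:**
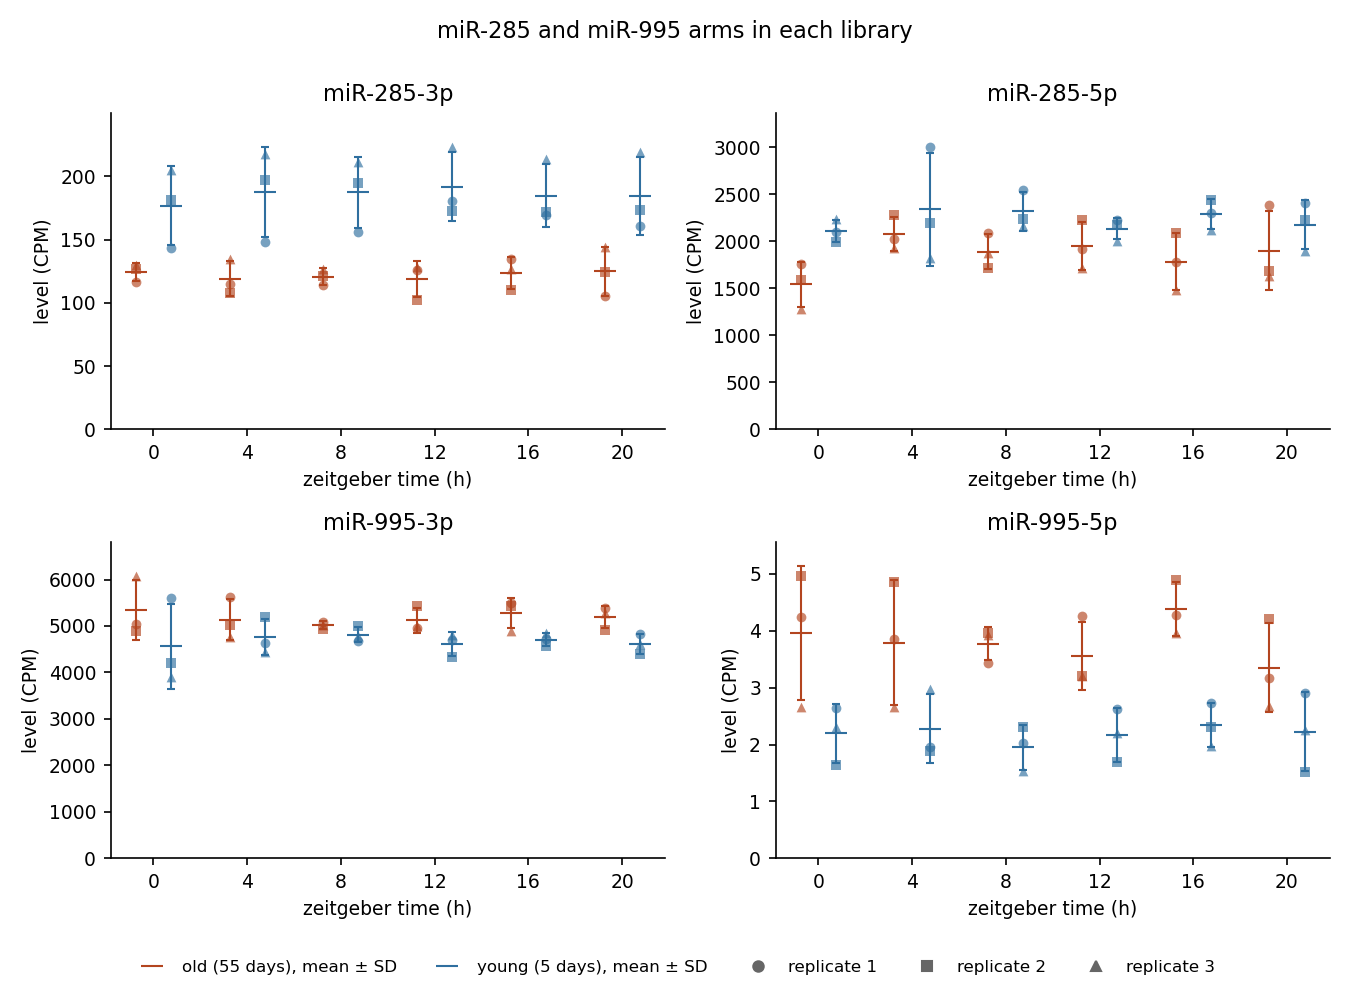
Level in CPM of each of the 4 arms by zeitgeber time, with 1 point per library (symbol by replicate number), and the mean ± SD of the 3 replicates as a bar, old left of young at each time. For miR-285-3p the old libraries lie below the young libraries of the same time at each of the 6 times, which held for 11.8% of tested features. For miR-995-5p they lie above those of the same time at 4 times, and 31.4% of features had as many such times or more. The direction for miR-995-3p, higher in old on this scale, turns when libraries are scaled to the total behind the deposited piRNA values.

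The miR-285-3p arm, by its listed name the one with the family seed, was lower in old heads. It was at 102, 125 and 144 CPM (lowest, median and highest of 18 libraries) in old heads, against 144, 181 and 223 CPM in young heads. In 17 of 18 old libraries it was below all young libraries, so that 1 value kept it out of the 9.64% of tested features whose ages did not overlap at all. The single overlap was between the highest old library (ZT20 replicate 3) and the lowest young library (ZT0 replicate 1, one of those rich in miR-184-3p). Means were 122 ± 11.3 CPM in old and 185 ± 25.6 CPM in young heads (SD, n = 18 each), so the old mean was 0.657 times the young. The fitted log2 difference, old minus young, was -0.60 (SE 0.063), with an adjusted p of 3.29e-10 from edgeR's quasi-likelihood test over all 363 tested features. By the same test 221 features (60.9%) were called, 104 higher (28.7%) and 117 lower (32.2%) in old heads, so a call alone does not set the arm apart. With library totals alone the split of calls was 146 higher and 72 lower, and with the total behind the piRNA values 28 higher and 251 lower. Without the 3 ovary-rich libraries the difference was -0.56, and without the 2 rich in miR-184-3p it was -0.61. A series is the 6 libraries of 1 age with the same replicate number, and the test over libraries takes these as independent. With counts summed per series the difference was -0.65, with a larger edgeR adjusted p of 0.00555.

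The other arm of the hairpin, miR-285-5p, fell by less. Its lowest, median and highest values were 1279, 1828 and 2381 CPM in old heads, against 1826, 2208 and 2999 CPM in young heads. Of the 18 old libraries 15 lay below the young median and 9 below all young libraries, so the ages overlapped more than for the 3p arm. The log2 difference was -0.27 (SE 0.065), with an edgeR adjusted p of 6.14e-04. This call was lost with libraries scaled to their totals alone (log2 difference -0.07, adjusted p 0.514) and in limma on log2(RPM + 1) (-0.07, adjusted p 0.468). It was also lost with counts summed per series (-0.30, adjusted p 0.0507). Without the 3 ovary-rich libraries the difference was -0.30, and without the 2 rich in miR-184-3p it was -0.22.

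For miR-995-3p, the abundant arm with the family seed, old heads had 4772, 5030 and 6075 CPM (lowest, median and highest), against 3898, 4683 and 5610 CPM in young heads. Every old library lay above the young median, but only 2 lay above all young libraries. On the TMM scale it rose by a log2 difference of 0.15 (SE 0.042; edgeR adjusted p 0.0031), with means of 5181 ± 334 CPM in old and 4678 ± 378 CPM in young heads (SD, n = 18 each), and on the total behind the piRNA values the direction turned, to -0.47 (adjusted p 1.38e-11). That total moves the median of all tested features to -0.62, and miR-995-3p stayed 0.15 above this median, the same distance as on the TMM scale. With counts summed per series the difference was 0.11, with an adjusted p of 0.210. The highest value of each age came from the library rich in miR-184-3p, and without those 2 libraries the difference was 0.17 (adjusted p 2.77e-06), with means of 5128 ± 256 CPM in old and 4624 ± 308 CPM in young heads (SD, n = 17 each).

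Counts of miR-995-5p, the scarce arm, were 43 to 116 per library in old and 30 to 83 in young heads. In old heads the lowest, median and highest levels were 2.65, 3.94 and 4.96 CPM, against 1.51, 2.23 and 2.98 CPM in young heads. It lay above all young libraries in 15 of 18 old ones. On the TMM scale it was higher in old heads by a log2 difference of 0.79 (SE 0.10, edgeR adjusted p 3.89e-08), the largest of the 4 arms. On the total behind the piRNA values it was higher by 0.18 (adjusted p 0.131), which is 0.79 above the median of all features there. With counts summed per series the difference was 0.76 (edgeR adjusted p 0.00496). Without the 3 ovary-rich libraries it was 0.80, and without the 2 rich in miR-184-3p it was 0.85. The age difference was thus unlike in size between the arms of each hairpin, which the ratios within libraries, given further on, test directly.

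**Figure D2:**
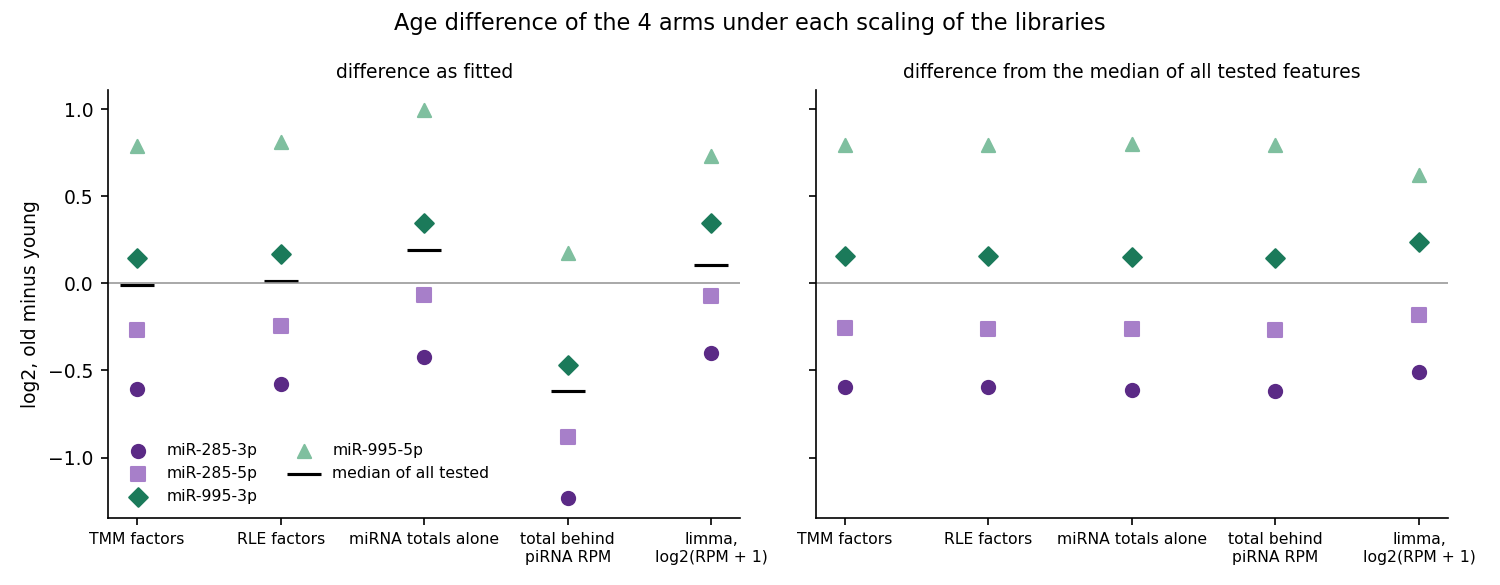
Age difference (log2, old minus young) of the 4 arms under 5 scalings of the libraries, as fitted on the left, where a dash marks the median of all tested features, and relative to that median on the right. As fitted, miR-995-3p lies at 0.15 with TMM factors and at -0.47 with the total behind the piRNA values, whereas relative to the median it lies between 0.15 and 0.24 in all 5, and miR-285-3p between -0.62 and -0.51.

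At single time points, with 3 libraries an age, miR-285-3p was called lower in old heads at all 6 times, and 12.7% of tested features were called at all 6 in 1 direction. Its log2 differences ran between -0.69 at ZT12 (SE 0.166; edgeR adjusted p 0.00263) and -0.51 at ZT0 (SE 0.166; adjusted p 0.0214). The old and young libraries did not overlap at any of the 6 times, which held for 11.8% of tested features. The calls depend on the scaling. All 6 were lost with library totals alone (-0.50 to -0.32, adjusted p 0.16 to 0.36) and in limma on log2(RPM + 1) (-0.49 to -0.24, adjusted p 0.169 to 0.519). With no filter on low counts they were lost at ZT0 (-0.46), ZT16 (-0.51) and ZT20 (-0.53), and without the 3 ovary-rich libraries at ZT0 (-0.47). They also rest on few libraries, and the call was lost at ZT0 without young replicate 2 or 3 (-0.50 and -0.40), at ZT4 without young replicate 3 (-0.45), at ZT8 without young replicate 3 (-0.47) and at ZT20 without young replicate 3 or old replicate 1 (-0.40 and -0.46). Young replicate 3 was the highest young library for miR-285-3p at each of the 6 times. The libraries of young replicate 3 at ZT4 and ZT8 are those rich in ovary miRNAs.

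For miR-995-5p the difference on the TMM scale was called at 5 of 6 times, with log2 values between 0.71 at ZT12 and 0.94 at ZT8. The value at ZT20 was 0.59 (edgeR adjusted p 0.114). Of all tested features, 16.8% were called at 5 or more of 6 times in 1 direction. Groups did not overlap at 4 times (ZT0, ZT8, ZT12 and ZT16), and 31.4% of features had as many such times or more. On the total behind the piRNA values all 5 calls were lost (0.10 to 0.32, adjusted p 0.358 to 0.79). The ZT4 call was borderline (adjusted p 0.0459) and was lost with no filter on low counts (0.74, adjusted p 0.0589) and in 23 of 36 fits that each left out a library. Those at ZT12, ZT0 and ZT16 were lost in 5, 3 and 1 such fits. The ZT8 call held in all 36.

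The miR-285-5p difference was called at 1 time, ZT0 (51.2% of features had at least 1 such call; -0.45, SE 0.166; edgeR adjusted p 0.0381) and ran between -0.36 and -0.13 at the other times. The ZT0 call was lost without young replicate 3 (-0.42), old replicate 2 (-0.51) or old replicate 3 (-0.34), the last of which is rich in miR-184-3p. It was also lost with library totals alone (-0.18), in limma on log2(RPM + 1) (-0.21) and with no filter on low counts (-0.40). With the replicate number as a block the ZT16 difference was called as well (-0.37, adjusted p 0.0397), and on the total behind the piRNA values all 6 times were called lower. For miR-995-3p no time point was called on the TMM scale, with log2 differences of 0.06 to 0.22, although the total behind the piRNA values turned all 6 to values between -0.60 and -0.35. Without young ZT0 replicate 1, the library rich in miR-184-3p, its ZT0 difference was 0.41 (adjusted p 0.0017), and without both such libraries it was called higher at ZT0 (0.30, adjusted p 0.00911) and ZT12 (0.20, adjusted p 0.0263). It was also called higher with library totals alone at ZT0 (0.49) and ZT16 (0.36), with the filter at a mean of 10 CPM at ZT16 (0.31), and in limma on log2(RPM + 1) at every time but ZT8 (0.30 to 0.48). Old and young libraries did not overlap at 3 times for each of miR-285-5p (ZT0, ZT8 and ZT16) and miR-995-3p (ZT12, ZT16 and ZT20), and 43.3% of features had as many such times or more. The share of all tested features called at a single time was 33.3% at ZT0, 24% at ZT4, 25.9% at ZT8, 27% at ZT12, 28.4% at ZT16 and 25.1% at ZT20. On the TMM scale each of the 4 arms kept the sign of its age difference at all 6 times, which held for 56.5% of features. An interaction term asked whether the size of the age difference varied over the day, and none of the 4 arms was called (lowest unadjusted p 0.727). No feature was called in that test by edgeR (0%), 24 had an unadjusted p under 0.05, and DESeq2 called 7.

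**Figure D3:**
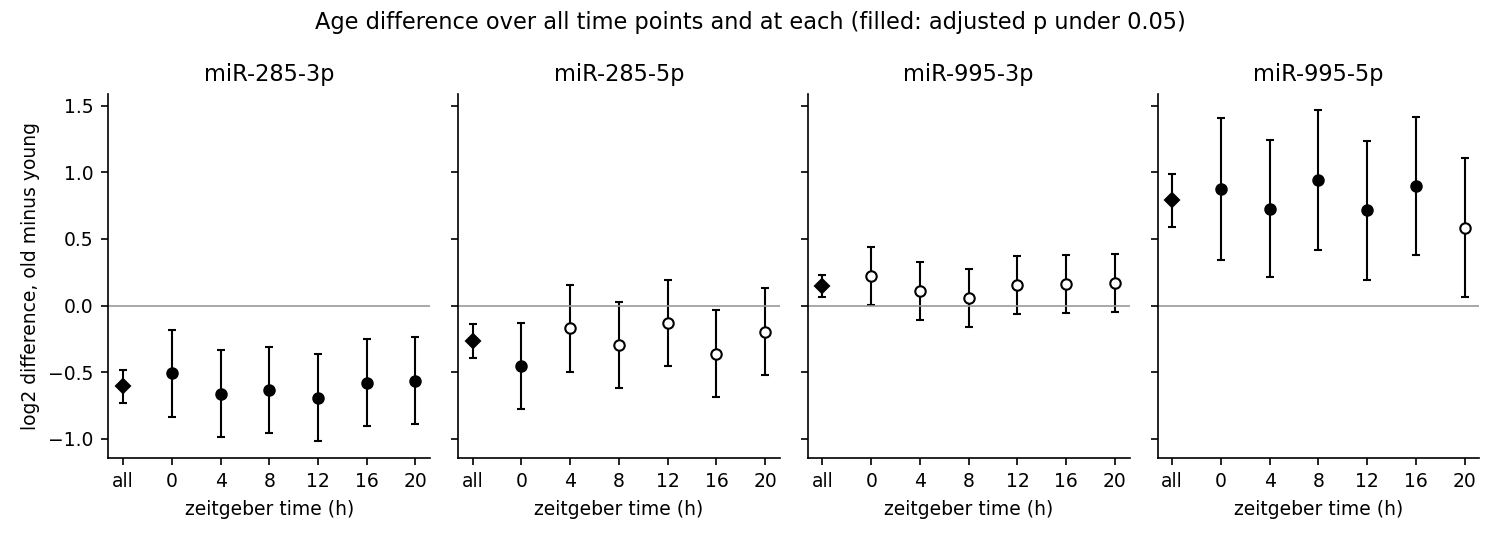
Log2 difference, old minus young, of each arm over all time points (diamond) and at each zeitgeber time (circles), on the TMM scale, with 95% intervals from the standard error. Filled symbols had an adjusted p under 0.05, which was so at all 6 times for miR-285-3p, at 5 for miR-995-5p, at 1 for miR-285-5p and at none for miR-995-3p. All 6 calls of miR-285-3p are lost with library totals alone, and all 5 of miR-995-5p with the total behind the piRNA values, where the values of miR-995-3p turn negative.

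No daily rhythm was called for any of the 4 arms at either age. Rhythm sizes here are fitted peak-to-trough differences of a cosine with a period of 24 h, on the log2 scale. They were 0.04 to 0.19 in old heads (edgeR adjusted p 0.879 or more), highest for miR-285-5p, and 0.05 to 0.13 in young heads (adjusted p 0.946). The means of miR-285-3p over the 6 times ran between 119 and 125 CPM in old and between 177 and 192 CPM in young heads, a span smaller than the SD of any single group of that age. Over all tested features, rhythms were called for 0 (0%) in old and 16 (4.41%) in young heads. At an unadjusted p under 0.05 there were 42 in old and 36 in young heads, none of the 4 arms among them. DESeq2 called 0 in old and 18 in young heads, again none of the 4 arms, whose rhythm and interaction tests passed under none of the alternatives run. The rhythm differed between the ages for 1 feature (0.275%), which was not one of them. A p above the threshold does not show that the arms are constant over the day.

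Ratios of counts within a library need no scaling between libraries, and 5 were compared. The ratio of miR-285-3p to miR-995-3p, the pair that share the family seed, was lower in old heads. Its log2 value averaged -5.41 ± 0.174 in old and -4.67 ± 0.254 in young libraries (SD, n = 18 each), and 13 old libraries lay below all young ones. The difference was -0.75 (SE 0.073), with a permutation p of 2e-05 over libraries (2-sided, 100000 resamples, the smallest they can give) and an adjusted p of 5e-05 over the 5 ratios. Over the means of 3 old and 3 young series the exact permutation p was 0.1, the smallest that such a design allows. The old series lay between -5.47 and -5.29, below the young series at -4.93 to -4.40. The lowest young library, at -5.29, was young ZT0 replicate 1, which is rich in miR-184-3p. Without the 2 libraries rich in miR-184-3p the ages did not overlap. Old libraries then lay at -5.73 to -5.15 and young ones at -4.96 to -4.25, and the difference was -0.78.

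Within a hairpin, the ratio of 3p to 5p was lower in old heads for both miRNAs. For miR-995 the log2 ratio was 10.43 ± 0.333 in old and 11.07 ± 0.296 in young libraries (SD, n = 18 each), a difference of -0.64 (SE 0.105, permutation p 2e-05, adjusted p 5e-05, exact p over series 0.1). For miR-285 it was -3.92 ± 0.340 in old and -3.59 ± 0.335 in young libraries, a difference of -0.33 (SE 0.112, permutation p 0.0062, adjusted p 0.00775). Here the series overlapped, at -4.07 to -3.63 in old and -3.92 to -3.24 in young heads, and the exact p over series was 0.2. Without the 3 ovary-rich libraries the miR-285 difference was -0.28 (permutation test, adjusted p 0.0273), and without the 2 rich in miR-184-3p it was -0.38. All 6 time points had the same sign for each of these 3 ratios.

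**Figure D4:**
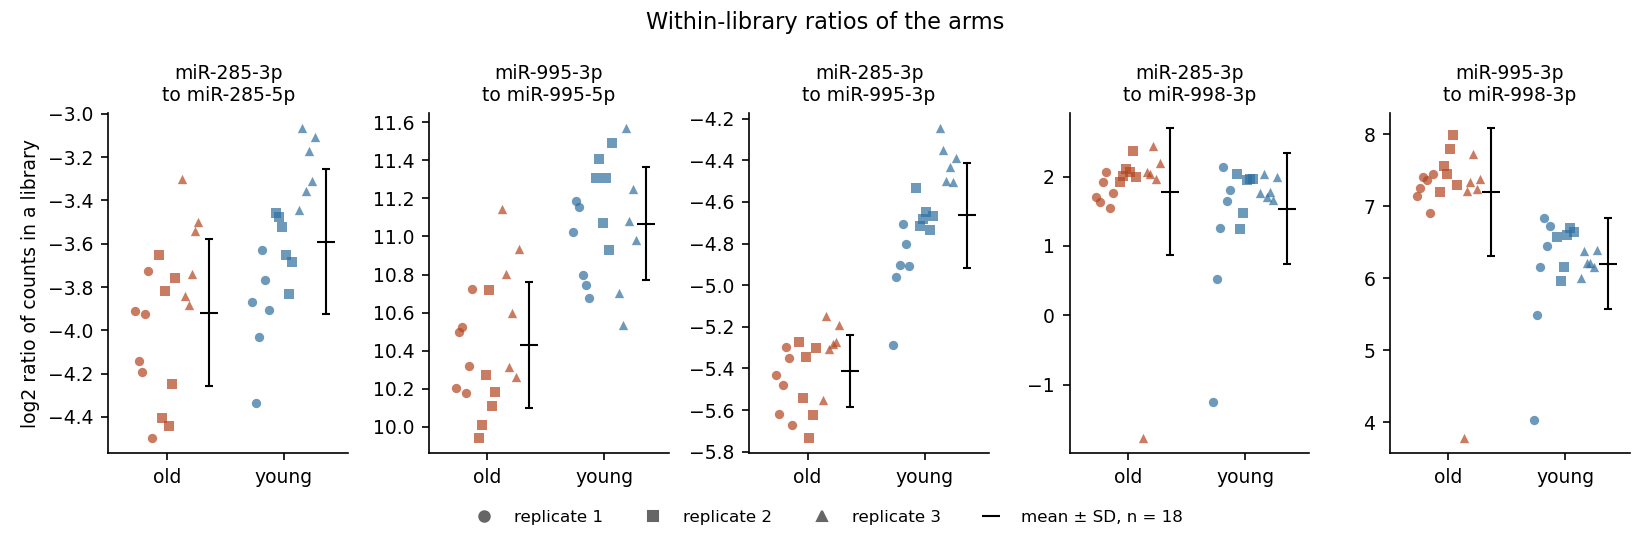
Log2 ratio of counts within a library for 5 pairs of arms, with 1 point per library grouped by replicate number, and the mean ± SD of 18 libraries as a bar, old left of young. The ratio of miR-285-3p to miR-995-3p averages -5.41 in old and -4.67 in young libraries, and 1 library at each age lies far below the rest in both ratios to miR-998-3p, the ones rich in miR-184-3p.

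The third arm of the seed family, miR-998-3p, had a median of 31.1 CPM in old and 57.8 CPM in young heads, with single values of 441 CPM (old ZT0 replicate 3) and 342 CPM (young ZT0 replicate 1) in the libraries rich in miR-184-3p. In the other 17 libraries of each age it averaged 30.9 ± 5.64 CPM in old and 59.1 ± 16.4 CPM in young heads. The log2 difference over all libraries was -0.77 (SE 0.266; edgeR adjusted p 0.0129), and without these 2 libraries -0.89 (SE 0.0988; adjusted p 2.02e-09). That of its partner miR-998-5p, at 231 ± 40.6 CPM in old and 421 ± 64.2 CPM in young heads (n = 18 each), was -0.86 (SE 0.080; adjusted p 1.98e-11). The log2 ratio of miR-995-3p to miR-998-3p was 7.19 ± 0.888 in old and 6.20 ± 0.634 in young libraries, a difference of 0.99 (permutation p 1.40e-04, adjusted p 2.33e-04, exact p over series 0.1), and of 1.06 without the 2 libraries rich in miR-184-3p. The ratio of miR-285-3p to miR-998-3p differed by 0.24 (SE 0.286, permutation p 0.439, exact p over series 0.6) over all libraries. Without the 2 rich in miR-184-3p it differed by 0.29 (permutation test, adjusted p 0.0111). With 1 library left out the difference ran between 0.077 and 0.45. Of those fits only that without old ZT0 replicate 3 was called (0.45, adjusted p 0.0053), and it kept the young library rich in miR-184-3p. Of the 6 arms of the 3 hairpins, 2 (those of miR-995) were called higher and 4 lower in old heads on the TMM scale, with a median log2 difference of -0.44, against -0.01 over all tested features, of which 28.7% were called higher and 32.2% lower.

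Counts of the 3 seed-bearing arms summed to 5356 ± 405 CPM in old and 4939 ± 422 CPM in young heads (SD, n = 18 each). Of this sum miR-995-3p held 96.8 ± 1.38% in old and 94.8 ± 0.888% in young libraries. The share of miR-285-3p was 2.29 ± 0.272% in old and 3.79 ± 0.632% in young libraries, and that of miR-998-3p 0.922 ± 1.43% in old and 1.45 ± 1.08% in young libraries. The summed level was thus nearly that of miR-995-3p, whose direction with age turns with the scaling.

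The arm listed as 5p was the higher one for miR-285 in 36 of 36 libraries and for miR-998 in 34 of 36, and the arm listed as 3p for miR-995 in 36 of 36. Over 115 hairpins with both arms listed and at least 1000 counts in all, 61 had the higher count on 5p and 54 on 3p. For miR-285 and miR-998 the arm listed as 3p was thus the lesser one in these tables. Of 97 hairpins whose arms have miRBase accessions that do not follow each other, the arm with the later accession was the higher one in 14 (14.4%), miR-285 and miR-998 among them. Arm names were taken as listed and could not be checked against sequence, since none stands beside them in the tables. In the annotation the 5p arms of miR-285 and miR-998 lie at the higher coordinates on the minus strand, the 5′ side of each hairpin. Which strand of the hairpin the miR-285-3p values refer to still rests on the listed names. Counts of miR-285-3p were not whole in 31 of 36 libraries, at a tolerance of 0.001, as were those of miR-995-3p, whereas those of miR-285-5p were not whole in 19 and those of miR-995-5p in 2. How the authors came to fractional counts is not given in the sources used here.

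Within an age, the arms of miR-285 went opposite ways from library to library. Pearson's r between their log2 CPM was -0.72 over 18 old and -0.68 over 18 young libraries, given as a description, since libraries share a series and arms share a scaling. In old heads replicate 3 had the highest miR-285-3p of its time point at 5 of 6 times and the lowest miR-285-5p at 5 of 6. In young heads replicate 3 had the highest miR-285-3p at 6 of 6 times and the lowest miR-285-5p at 5 of 6. Series means of miR-285-3p were 119, 115 and 132 CPM in old replicates 1, 2 and 3, against 160, 182 and 215 CPM in young replicates 1, 2 and 3. Series means of miR-285-5p were 1991, 1932 and 1651 CPM in old and 2432, 2210 and 2040 CPM in young replicates 1, 2 and 3. All 3 old series lay below all 3 young series for each arm. A negative r between arms is not particular to miR-285, because 19 of 43 hairpins with at least 10 CPM on each arm had one at both ages, and the median r was -0.03 in old and -0.20 in young heads. That of miR-285 ranked 5 from the lowest in old and 7 from the lowest in young heads.

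**Figure D5:**
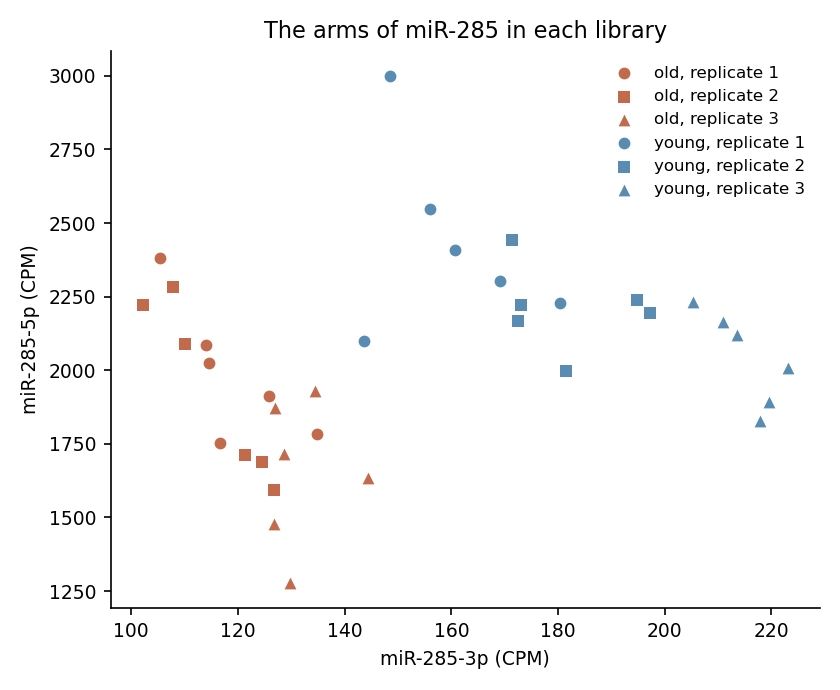
Level of miR-285-5p against that of miR-285-3p in CPM, with 1 point per library, coloured by age and with a symbol for the replicate number. Old libraries lie left of young ones, apart from 1 overlap at 144 CPM, and within each age the points run downwards to the right, with replicate 3 at the lower right.

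Across arms of different hairpins, miR-285-5p varied with miR-998-5p (r 0.86 in old and 0.73 in young, n = 18 each). The r of miR-285-3p with miR-995-3p was -0.16 in old and -0.22 in young heads. That of miR-995-3p with miR-998-3p, 0.64 in old and 0.66 in young heads, includes the libraries rich in miR-184-3p, which hold the highest values of both arms at each age, and was 0.09 in old and 0.41 in young heads without them (n = 17 each).

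Features whose pattern was most like that of miR-285-3p, by Pearson's r of log2 CPM over 36 libraries among 166 tested features with at least 10 CPM, were miR-2c-3p (0.942), miR-193-5p (0.923), miR-1010-5p (0.887) and miR-971-3p (0.874). For miR-2c-3p, a K box family miRNA, the likeness also stood within old (0.866) and within young libraries (0.910), and its means were 163 CPM in old and 216 CPM in young heads. For miR-1010-5p it was 0.341 within old and 0.609 within young libraries. Most like miR-995-3p were miR-263a-5p, known for survival of sense organ cells (0.771; 0.809 within old and 0.711 within young), miR-252-5p (0.740), the unnamed candidate rr817690-5b-5p-miR (0.712) and miR-305-3p (0.709). These values describe the libraries and were not tested. They include the 2 libraries rich in miR-184-3p, which hold the highest miR-995-3p of each age, and the likeness without those was not computed.

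As miR-995 lies in an intron of a cell cycle gene, other intronic miRNAs of cell cycle genes were set beside it. They are miR-11 and miR-998 of E2f1, a transcription factor of S phase genes, and miR-9c, miR-306, miR-79 and miR-9b of grp, which encodes the checkpoint kinase Chk1. Of 14 arms tested with those of miR-995, 5 were called higher and 5 lower in old heads on the TMM scale, where 60.9% of all tested features were called, so the share called was near that background. Their median log2 difference was 0.10, against -0.01 over all tested features. On this scale those of E2f1 were lower in old heads, with miR-11-3p at -0.17 (SE 0.068; edgeR adjusted p 0.0295) and miR-11-5p at -0.24 (adjusted p 0.0146) beside the miR-998 arms above. In the grp cluster miR-306-3p (0.72, adjusted p 4.88e-08), miR-9b-5p (0.43, adjusted p 3.64e-07) and miR-306-5p (0.40, adjusted p 5.08e-04) were higher in old heads. There miR-9c-5p (-0.24, adjusted p 1.39e-04) was lower. At ZT0 miR-306-5p had the other sign (-0.37, edgeR adjusted p 0.110, not called), against 0.26 to 0.88 at the other times. With library totals alone miR-11-3p turned to 0.02 (adjusted p 0.761), and the calls of miR-11-5p (-0.04) and miR-9c-5p (-0.04) were lost. With RLE size factors that of miR-11-3p was lost (-0.15, adjusted p 0.0712). On the total behind the piRNA values miR-306-5p turned to -0.22, miR-9b-5p turned to -0.18 and the call of miR-306-3p was lost (0.09, adjusted p 0.467), while the miR-998 arms stayed lower under each scaling (-1.39 and -1.48 on that total for 3p and 5p). The messenger RNAs of these genes were not measured in these libraries.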

How the data were processed

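Heads were sampled as 36 small RNA libraries. The deposited tables give expected counts per mature arm, some of them with fractions. The authors also gave RPM, which for miRNAs equals the count over the library's miRNA total. In the piRNA tables RPM rests on a larger library total (36.5 to 91.6 M). That total goes with age, as all old libraries but ZT16 replicate 2 had a larger one than any young library. Bowtie and the BDGP6 and dm6 builds are named, without versions, per the submitters' processing notes. What is meant by adjusted in the names of the tables is not given in the sources used here. All 216 value columns belonged to a sample.

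Rounded counts went into edgeR 4.0.16 (R 4.3.3, robust quasi-likelihood fit) after filterByExpr over the 12 groups, with TMM factors. The age effect came from a fit with time point as a factor, time-point differences and the interaction from a 12-group fit, rhythms from cosine and sine terms of 24 h. Adjusted p-values are Benjamini-Hochberg over the 363 tested features, threshold 0.05. Ratios used counts + 0.5. Scripts were tested on simulated data. Alternatives are listed in the closing section (limma 3.58.1, DESeq2 1.42.0, statmod 1.5.0).

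All replicate pairs differed beyond counting error (lowest chi-square divided by its degrees of freedom 138, over 36 pairs). Members and lists were chosen with earlier results of these data known. The seed list was to be built from sequence, which was not done here, and miR-998 was taken from general knowledge. Named features were all listed arms of miR-285 and miR-995, the seed and host lists, and the 4 features with the highest correlation to each seed-bearing member.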

Additional observations from a re-analysis of the deposited data

How the results depend on the processing

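The age difference of miR-285-3p kept its direction and its call under all alternatives run (other scalings and filters, miRBase-named features alone, DESeq2, limma, limma-voom, 12 groups, summed series, libraries left out), between -1.23 and -0.40. The total behind the piRNA values gave -0.47 for miR-995-3p and 0.18 for miR-995-5p, miRNA totals alone gave -0.066 and limma on log2(RPM + 1) gave -0.073 for miR-285-5p, and counts summed per series gave -0.30 for miR-285-5p and 0.11 for miR-995-3p; the cause was not tested, and the first of these scalings put the median over all features at -0.62. On that total miR-995-3p was -0.35, -0.51, -0.60, -0.36, -0.53 and -0.47 from ZT0 to ZT20. A filter at a mean of 10 CPM left miR-995-5p out. It gave 123 calls for age among the 168 features it kept, against 221 in the fit reported, and the other alternatives gave 168 to 279 calls. Leaving out any 1 library kept the calls for all 4 arms (-0.62 to -0.56, -0.29 to -0.22, 0.13 to 0.19 and 0.76 to 0.85 for miR-285-3p, miR-285-5p, miR-995-3p and miR-995-5p). Over series means the ratios were -0.33, -0.64, -0.75 and 0.99 as before, with exact p of 0.2 and 0.1, where 0.1 is the smallest possible; without the 2 libraries rich in miR-184-3p, miR-285-3p to miR-998-3p was 0.29, and between 0.077 and 0.45 with 1 library left out.

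For the 40 results of the arms at single times and of rhythms, 1828 of 1918 alternative values lay on the same side of the threshold, 67 lost and 17 gained a call, and 6 turned. Counts of features called at a single time (87 to 121) ran between 47 and 189 over the alternatives. Rhythms in young heads, 16 in the fit reported, numbered 4 with the 10 CPM filter and without the ovary-rich libraries, 1 with limma, 2 with limma-voom, 9 with time point as a factor, and 0 to 19 with 1 library left out (0 without young ZT8 replicate 3). Rhythm differences numbered 4 with DESeq2, 0 with the 10 CPM filter, limma, limma-voom or the ovary-rich libraries left out, and 0 to 6 with 1 library left out. The interaction had 7 calls with DESeq2 and 0 to 5 with 1 library left out. Over all tested features, same-numbered samples of the 2 ages showed no steady shared deviation (r from -0.25 to 0.35, over 0.1 in 6 of 18 pairs). Replicate 3 nevertheless had the highest miR-285-3p at 5 of 6 times in old and 6 of 6 in young heads. Whether the numbers pair samples is not stated, and these values do not settle it. With the replicate block 230 features were called for age, and the 4 arms were at -0.60, -0.27, 0.15 and 0.79; it changed no call for the arms over all time points, and at single times added that of miR-285-5p at ZT16 (-0.37).

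Depth limits miR-995-5p most, at 30 to 116 counts a library. Intervals cover the spread between these samples only.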
